A study of Mus musculus with 6 samples.

Results

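A set of 10 genes for proteins that the liver secretes to signal to, or carry cargo for, other organs was followed in the livers of pregnant mice with and without hepatocyte ChREBP. The members were chosen by name, as known hepatokines and secreted metabolic signals, with no threshold on their values: *Fgf21*, *Gdf15*, *Enho*, *Inhbe*, *Inhba*, *Ahsg*, *Fetub*, *Rbp4*, *Selenop* and *Lect2*. Each symbol matched 1 row with reads among the 56691 gene rows of the deposited table, and all 10 passed the filter on low values and were tested. Liver RNA of 3 dams of the KPF group and 3 dams of the WPF group was sequenced. KPF dams were h*Chrebp* KO, that is Chrebp flox/flox with 1 copy of an Alb-Cre transgene, whose albumin promoter drives the recombinase in hepatocytes, so that other liver cells keep the floxed gene. WPF dams are labelled WT and were, by the methods of the study, Chrebp flox/flox without Cre, so all 6 dams carried the floxed allele. All dams were female, on a C57BL/6J background, mated with Chrebp flox/flox males, and given HFrD, a diet with 70% fructose, from day 0 to day 17 of pregnancy. Their age was not given in the sources used here. The libraries come from separate dams, KPF replicates 1 to 3 and WPF replicates 2 to 4.

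ChREBP, encoded by *Mlxipl*, is a transcription factor that is activated when sugars are metabolised and that binds paired E-boxes in genes of glycolysis and lipid synthesis. Hepatokines are the liver's hormones. FGF21 acts through FGF receptors with the co-receptor beta-Klotho and is known to be induced in liver by fasting through PPARalpha, by amino acid and organelle stress through ATF4, and by sugar through ChREBP. GDF15 and the activin E gene *Inhbe* are likewise known stress-responsive genes, whereas fetuin-A, retinol binding protein and selenoprotein P are abundant plasma proteins that hepatocytes make all the time.

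The sequences before the start sites of *Fgf21* and *Inhbe*, the members with the largest log2 fold changes, are shown because both hold the same 8 letters, and those of *Rbp4* and *Gdf15* because they hold the other matches. RefSeq windows (GRCm38.p6, 250 bases before to 50 bases after a start site) were at hand for 9 of the 10 members, 14 windows in all, and *Enho* had none. The letters TGATGNAA, the core of the composite element that ATF4 is known to bind, were searched on both strands, as was the palindromic E-box CACGTG. Matches are in capitals, lines read 5′ to 3′ on the strand of the gene, and positions count back from the base before the start site at -1.
Fgf21, chr7:45615491-45615640, minus strand, -150 to -1: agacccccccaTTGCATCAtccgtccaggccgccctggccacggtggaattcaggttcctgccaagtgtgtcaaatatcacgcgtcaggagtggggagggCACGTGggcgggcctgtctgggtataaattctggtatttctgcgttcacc
Inhbe, chr10:127351899-127352048, minus strand, -200 to -51: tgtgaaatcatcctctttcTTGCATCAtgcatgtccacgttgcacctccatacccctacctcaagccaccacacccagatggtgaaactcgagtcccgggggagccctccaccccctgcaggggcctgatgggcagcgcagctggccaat
Rbp4, chr19:38125362-38125421, minus strand, -100 to -41: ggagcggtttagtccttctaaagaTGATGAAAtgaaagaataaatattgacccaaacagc
Gdf15, chr8:70632146-70632205, minus strand, -110 to -51: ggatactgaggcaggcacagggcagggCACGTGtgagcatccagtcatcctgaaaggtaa

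The ATF4 letters were found in 3 members: as TTGCATCA on the reverse strand at -139 to -132 in *Fgf21* and at -181 to -174 in *Inhbe*, and as TGATGAAA at -76 to -69 in the first of the *Rbp4* windows. That is 3 of the 14 member windows, and 3.97% of all 32851 windows in the table held this motif. The E-box was found in 2 members, at -50 to -45 in *Fgf21* and at -83 to -78 in the second of the *Gdf15* windows. That is 2 of the 14 member windows, and 7.15% of all windows held it. Several windows of 1 gene can overlap, so these shares are not shares of genes. The full carbohydrate response element was in no member window and in 9 of all windows. These are matches of letters and not measured binding sites, and a motif not found here may lie outside these windows.

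In the deposited table (GRCm39) the hormone genes are *Fgf21* at chr7:45263310-45264914, *Gdf15* at chr8:71082043-71085106 and *Enho* at chr4:41638144-41640324, all on the minus strand. *Inhbe* lies at chr10:127184726-127190280 on the minus strand and *Inhba* at chr13:16186436-16206206 on the plus strand. Of the carriers, *Ahsg* at chr16:22710027-22718199, *Fetub* at chr16:22737084-22758528 and *Selenop* at chr15:3298029-3309990 are on the plus strand, and *Rbp4* at chr19:38105077-38113729 is on the minus strand, as is *Lect2* at chr13:56690277-56696315. Counts and FPKM were summed over the exons of each gene.

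The libraries held between 10694496 and 14496630 counted reads, each KPF library fewer than each WPF library. Levels are given as CPM (read counts per gene, adjusted by TMM for library size), in the order KPF replicates 1, 2 and 3 or WPF replicates 2, 3 and 4. *Mlxipl*, the targeted gene, measured 179, 700 and 849 CPM in KPF against 961, 1260 and 879 CPM in WPF. The groups did not overlap, KPF replicate 3 lying just under WPF replicate 4, and the reads cover the whole gene and not only the deleted exon. All 8 hepatocyte markers were detected in every library, with a summed level of 80134 to 106650 CPM in KPF and 103957 to 172559 CPM in WPF. KPF replicate 2 stood apart in 5 skeletal muscle markers, which summed to 2966 CPM there and to 4.57 to 10.5 CPM in the other 5 libraries. The 8 stellate cell and fibroblast markers summed to 167 to 369 CPM in KPF and to 96.1 to 125 CPM in WPF, without overlap. The 5 adipocyte markers summed to 2.11 to 23.4 CPM in KPF and to at most 0.42 CPM in WPF, with *Lep* at 0 throughout. The other sets overlapped between the groups (8 macrophage, 8 sinusoidal endothelial, 6 cholangiocyte, 6 lymphocyte and 5 erythroid markers) except the 4 mesothelium markers, with 4.13 to 13.0 CPM in KPF and 0.94 to 3.51 CPM in WPF. Their part in the results below was not tested. In whole liver, fewer cells of a type and less RNA per cell cannot be told apart.

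*Inhbe* was the member that differed most clearly between the groups, with 3.10-fold more transcript in KPF. The estimate for *Fgf21* was larger and that for *Inhba* smaller, both toward lower levels in KPF, and neither exceeded the spread between dams. The estimates for the abundant carriers fetuin-A, fetuin-B, retinol binding protein and selenoprotein P differed between groups by at most 1.19-fold. Groups were compared by edgeR's quasi-likelihood test over the 10866 genes whose mean FPKM reached 1, with Benjamini-Hochberg adjustment. At the adjusted 0.05 level, 0 members and 0 of all tested genes passed (0% of genes tested). The smallest adjusted p was 0.397, while 1177 genes had an unadjusted p under 0.05 and DESeq2 gave 156 genes at an adjusted p under 0.05, *Inhbe* among them. A looser rule, which asks for 1.5-fold or more and p under 0.05 before adjustment, was passed by 9.82% of tested genes, 5.83% higher and 3.98% lower in KPF. *Inhbe* alone passed it, so that 1 of 10 members was called, a share near that of all genes. With library totals in place of TMM the split of the calls turned, from 634 higher and 433 lower genes to 371 higher and 729 lower, and the median over all genes tested moved, in log2 fold change, from 0.02 to -0.12. *Inhbe* alone had groups that did not overlap, against 15.7% of tested genes. Across the members 3 log2 fold changes were positive and 7 negative, with a median of -0.21.

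**Figure D1:**
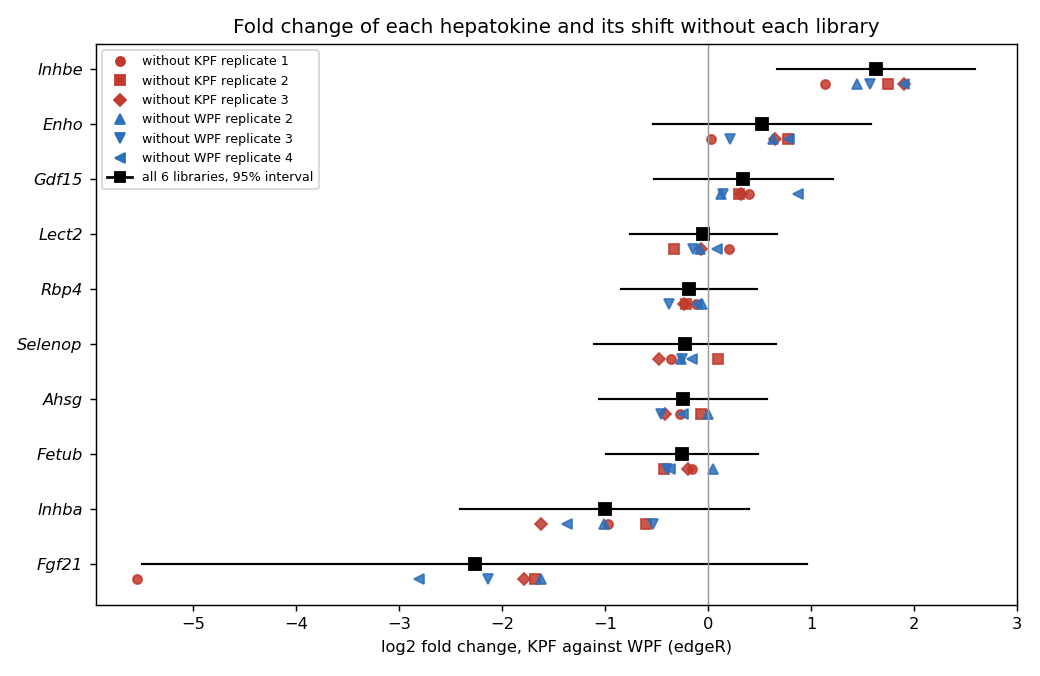
The log2 fold change of each hepatokine gene in KPF against WPF on the x axis (black squares, edgeR on all 6 libraries, with 95% intervals), with the estimate after leaving out each library below it in colour. The interval of *Inhbe*, from 0.67 to 2.59, is the only one that does not cross 0, and *Fgf21* moved from -2.27 to -5.54 without KPF replicate 1.

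Among the metabolic hormones, *Fgf21*, which signals energy stress and sugar intake to fat tissue and brain, varied most between dams. It stood at 19.5, 13.3 and 1.29 CPM across WPF dams and at 6.57, 0 and 0.48 CPM across KPF dams. In reads these were 226, 189 and 22 in WPF and 69, 0 and 5 in KPF. WPF replicates 2 and 3 were well above all KPF dams, but WPF replicate 4 was below KPF replicate 1, so the groups overlapped. The 0 reads of KPF replicate 2 allow a level of up to 0.27 CPM, counting error only, at the depth of that library. The log2 fold change was -2.27 (SE 1.39, 95% interval -5.50 to 0.96). EdgeR's adjusted p was 0.576 and the exact two-sided permutation p was 0.2, where 0.1 is the smallest that 3 dams against 3 allow. Without KPF replicate 1 the log2 fold change of *Fgf21* was -5.54 with edgeR's unadjusted p at 0.00931, which passed the looser rule. Leaving out any other library gave values from -2.81 to -1.63 that did not pass it.

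WPF replicate 4 was the lowest of the WPF dams in *Fgf21*, in 19 of 20 ChREBP-responsive genes (*Txnip* was the exception) and in 40.3% of all tested genes. Over all genes its chi-square per gene was 87.1 and 104 against the other WPF dams, which differed from each other by 35.5. Pairs of KPF dams differed by 57.5 between replicates 1 and 3, and by 77.7 and 87.3 where KPF replicate 2, the library with the skeletal muscle transcripts, was in the pair. The 104 between WPF replicates 2 and 4 was thus larger than any KPF pair, while the 87.1 between WPF replicates 3 and 4 was within their range. *Pklr*, liver pyruvate kinase, stood at 149 and 137 CPM in WPF replicates 2 and 3, at 24.5 CPM in WPF replicate 4, and at 11.1, 18.3 and 11.9 CPM across KPF dams. *Scd1*, stearoyl-CoA desaturase, stood at 5679 and 7892 CPM in WPF replicates 2 and 3, at 344 CPM in WPF replicate 4 and at 96.3 to 223 CPM in KPF. In *Pklr*, *Scd1* and *Fgf21*, WPF replicate 4 was nearer to the KPF dams than to the other WPF dams. It lay within the range of the KPF dams in 8 of the 20 ChREBP-responsive genes and in 5380 of all 10866 tested genes. Its *Mlxipl* level of 879 CPM lay between the 849 CPM of KPF replicate 3 and the 961 CPM of WPF replicate 2.

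*Gdf15*, a stress hormone that acts on the hindbrain through the receptor GFRAL, was even in KPF, at 9.24, 10.5 and 10.3 CPM. In WPF it stood at 5.36 and 5.55 CPM in replicates 2 and 3 and at 12.8 CPM in replicate 4. WPF replicate 4 was the highest of all 6 libraries and the other WPF dams the lowest. The log2 fold change was 0.34 (SE 0.37, edgeR's adjusted p = 0.757, exact permutation p = 0.4). Without WPF replicate 4 it was 0.87 with edgeR's unadjusted p at 0.0154, which passed the looser rule. *Enho*, the gene of the peptide adropin, stood at 17.5, 7.80 and 20.3 CPM in WPF and at 34.5, 13.2 and 17.7 CPM across KPF dams. KPF replicate 1 was the highest, the other KPF dams lay within the range of WPF, and the log2 fold change was 0.52 (SE 0.45, edgeR's adjusted p = 0.694, exact permutation p = 0.5). Without KPF replicate 1 the log2 fold change of *Enho* was 0.02.

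**Figure D2:**
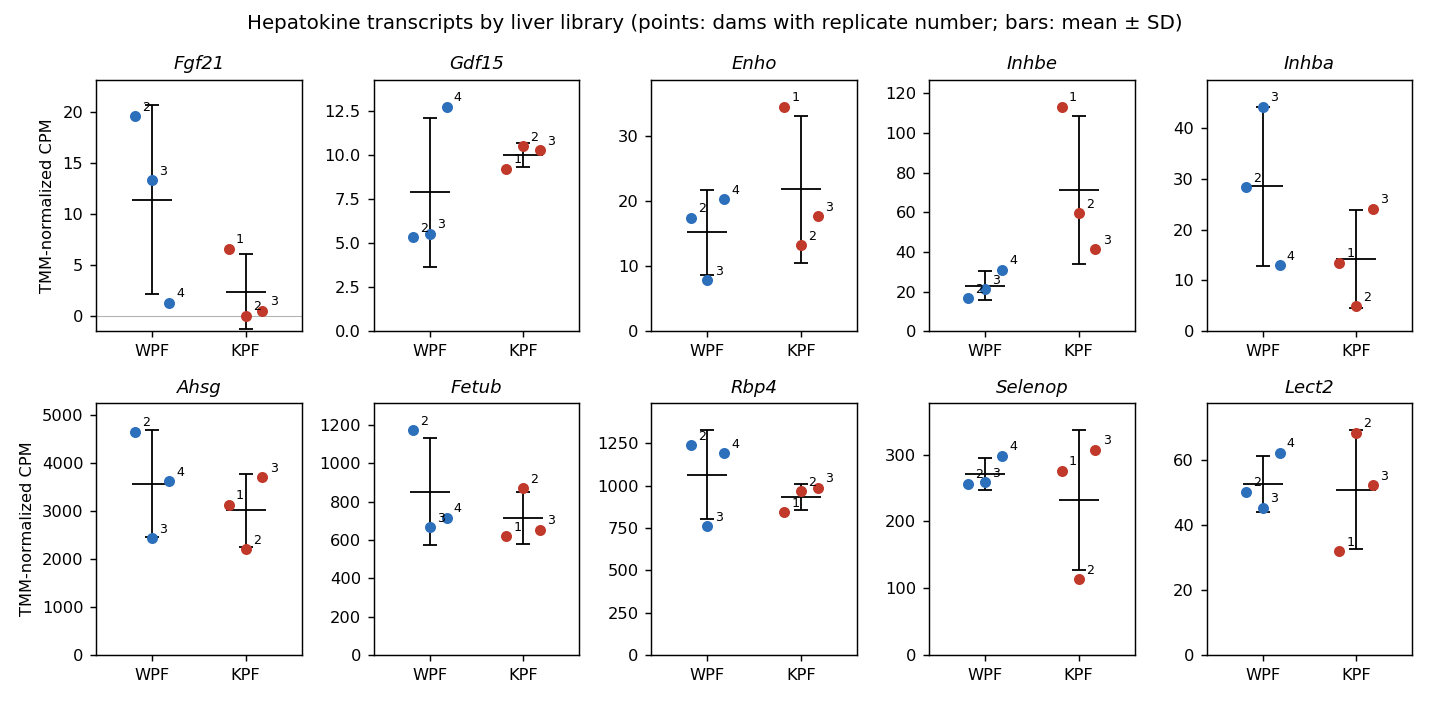
TMM-normalized CPM of the 10 hepatokine genes in each liver library (points, with the replicate number of the dam) and the mean ± SD of each group of 3 dams. *Inhbe* is the panel in which all KPF dams, 41.4 to 113 CPM, lie above all WPF dams, 16.8 to 31.1 CPM.

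*Inhbe* and *Inhba* encode beta subunits of the activin family, dimeric ligands related to TGF-beta. *Inhbe* (ENSMUSG00000047492) is made almost only in hepatocytes and forms activin E. It stood at 16.8, 21.2 and 31.1 CPM across WPF dams and at 113, 59.4 and 41.4 CPM across KPF dams. Every KPF dam was above every WPF dam, and KPF replicate 1 was the highest by far. The dams averaged 71.4 ± 37.4 CPM with the knockout and 23.0 ± 7.34 CPM without it (SD, n = 3 each). The log2 fold change was 1.63 (SE 0.41, 95% interval 0.67 to 2.59). By edgeR p was 0.00478 before and 0.43 after adjustment, and the exact two-sided permutation p was 0.1, the smallest possible. It ranked 113 by p among the tested genes. The looser rule was passed without any one of the 6 libraries, at log2 fold changes from 1.13, without KPF replicate 1, to 1.9. Scaled by library totals the groups only just parted, with 37.3 CPM in KPF replicate 3 and 36.6 CPM in WPF replicate 4.

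*Inhba* (ENSMUSG00000041324), whose product forms activin A, ran the other way. It stood at 28.3, 44.3 and 13.0 CPM across WPF dams and at 13.5, 4.95 and 24.1 CPM across KPF dams. WPF replicate 4 was below KPF replicates 1 and 3, so the groups overlapped. The log2 fold change was -1.01 (SE 0.60, 95% interval -2.41 to 0.40, edgeR's adjusted p = 0.573, exact permutation p = 0.3). Without KPF replicate 3 it was -1.63 with edgeR's unadjusted p at 0.0382, which passed the looser rule. Set against each other within a library, per length of transcript, *Inhbe* was 10, 14.4 and 2.06 times the level of *Inhba* in KPF replicates 1, 2 and 3 and 0.71, 0.58 and 2.87 times in WPF replicates 2, 3 and 4. The ratio, which was formed after the values had been seen, overlapped through KPF replicate 3 and WPF replicate 4 (exact two-sided permutation test on the log2 ratio, p = 0.2).

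*Ahsg*, *Rbp4* and *Fetub* were the most abundant members in each group, and no carrier gene differed beyond the spread between dams. On the FPKM scale, which allows levels of different genes to be compared, *Ahsg* stood at 1307 ± 273 in KPF and 1679 ± 414 in WPF, *Rbp4* at 665 ± 49.6 and 827 ± 215, *Fetub* at 350 ± 78.4 and 444 ± 82.3, and *Selenop* at 77.4 ± 32.8 and 101 ± 21.6 (mean ± SD, n = 3 each). *Lect2* followed with 53.1 ± 20.1 and 60.8 ± 16.8, then *Enho* with 16.5 ± 8.87 and 12.6 ± 6.08. *Inhbe*, *Fgf21*, *Gdf15* and *Inhba* closed the order with group means from 2.08 to 13.0 FPKM. *Fgf21* stood at 2.41 ± 3.79 FPKM in KPF against 11.7 ± 8.87 FPKM in WPF, and *Inhbe* at 13.0 ± 7.14 FPKM against 4.68 ± 2.06 FPKM. From *Ahsg* down to *Fetub* and from *Fetub* to *Selenop*, the mean ± SD ranges of neighbours stood clear of each other in both groups. *Selenop* and *Lect2* overlapped in KPF, and *Enho* overlapped with the next gene in each group, *Inhbe* in KPF and *Fgf21* in WPF. *Inhbe*, *Gdf15* and *Inhba* had WPF means between 4.62 and 4.68 FPKM, which did not differ beyond their spread. Together the 10 members took 0.43% to 0.70% of the counted reads of a library.

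*Ahsg* encodes fetuin-A, a mineral-binding plasma glycoprotein that can inhibit the insulin receptor. It stood at 4661, 2435 and 3626 CPM across WPF dams and at 3138, 2206 and 3710 CPM across KPF dams, a log2 fold change of -0.24 (95% interval -1.06 to 0.57, edgeR's adjusted p = 0.813). *Fetub*, its relative and neighbour on chromosome 16, encodes fetuin-B, a protease inhibitor needed for fertilisation of the egg. It stood at 1171, 668 and 715 CPM in WPF and at 619, 869 and 653 CPM in KPF, with a log2 fold change of -0.25 (95% interval -0.99 to 0.48, adjusted p = 0.783). WPF replicate 2 was the highest in both fetuin genes, whereas KPF replicate 2 was the lowest in *Ahsg* and the second highest in *Fetub*. *Rbp4*, the plasma carrier of retinol, stood at 1237, 761 and 1191 CPM in WPF and at 844, 967 and 988 CPM in KPF. WPF replicate 3 lay below all KPF dams and the other WPF dams above them, and the log2 fold change was -0.19 (95% interval -0.85 to 0.47, edgeR's adjusted p = 0.822).

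*Selenop* encodes selenoprotein P, which delivers selenium from the liver to brain and testis. It stood at 257, 258 and 298 CPM in WPF and at 276, 113 and 307 CPM across KPF dams. Only KPF replicate 2, the library with the skeletal muscle transcripts, was low, and the log2 fold change turned from -0.22 (95% interval -1.11 to 0.66, edgeR's adjusted p = 0.84) to 0.10 without it. *Lect2*, a chemotactic hepatokine, stood at 50.3, 45.4 and 62.4 CPM in WPF and at 31.9, 68.6 and 52.3 CPM in KPF. The KPF dams held both the lowest and the highest value, and the log2 fold change was -0.05 (95% interval -0.76 to 0.66, edgeR's adjusted p = 0.963). All 5 of these intervals reached past a 1.5-fold lower level in KPF, so the data leave room for a difference of that size.

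**Figure D3:**
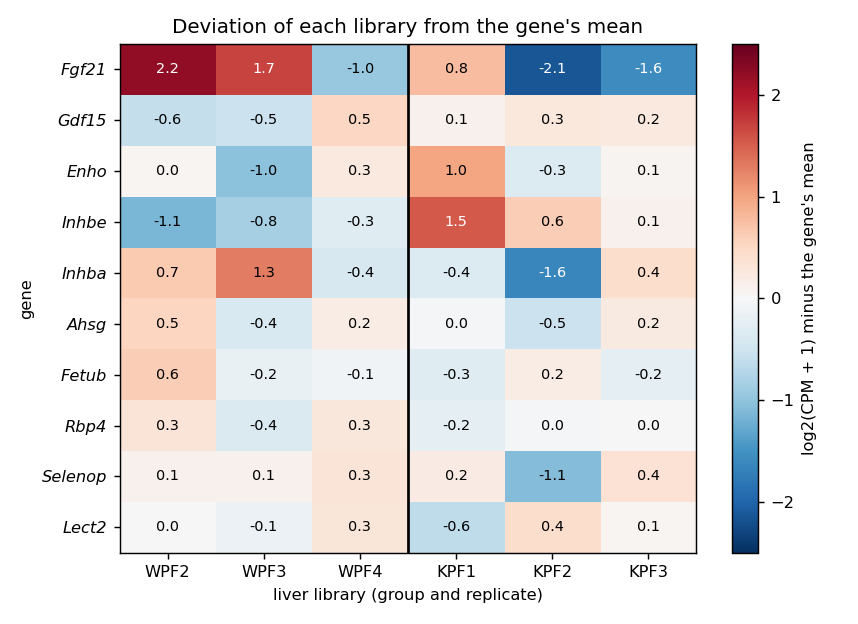
Each cell gives log2(CPM + 1) of a hepatokine gene in a library minus the mean of that gene over the 6 libraries, WPF left and KPF right of the line. *Fgf21* spans 2.2 to -2.1, KPF replicate 1 stands out in *Inhbe* at 1.5 and *Enho* at 1.0, and KPF replicate 2 is low in *Inhba* at -1.6 and *Selenop* at -1.1.

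The members did not move as 1 block across dams. WPF replicates 2 and 3 combined high *Fgf21* and *Inhba* with low *Gdf15* and *Inhbe*, and WPF replicate 4 had the opposite in each of these genes when set against them. KPF replicate 1 had the highest *Inhbe* and *Enho* of all dams and the lowest *Mlxipl*, *Lect2* and *Fetub*. It also held the highest sum of the stellate cell and fibroblast markers, 369 CPM.

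Genes that act with the hepatokines were taken from lists written from general knowledge, and each call in them uses the looser rule, whose background is the 9.82% given above. No gene of any list passed edgeR's test after adjustment at 0.05. Of 14 tested receptors and co-receptors, 2 were called and both were lower: *Fgfr2*, with means of 23.8 CPM in KPF against 48.0 CPM in WPF (log2 fold change -1.01), and *Fgfr3*, an FGF receptor as well, with -0.63. *Klb*, beta-Klotho, the co-receptor on which FGF21 depends, stood at 10.9 ± 1.41 CPM in KPF against 11.7 ± 2.35 CPM in WPF (SD, n = 3 each), a log2 fold change of -0.11. The call of *Fgfr3* was kept in 1 of the 6 fits that leave out a library, and that of *Fgfr2* in all 6. The median log2 fold change of the list was -0.24, against 0.02 over all tested genes.

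In the activin family and its antagonists, 7 genes were tested, 1 was called higher and 1 lower. *Inhbc*, which neighbours *Inhbe* and encodes another hepatic beta subunit, stood at 225, 60.7 and 91.2 CPM across KPF dams and at 57.9, 64.8 and 49.0 CPM in WPF. KPF replicate 1 was far above the rest and KPF replicate 2 within WPF. The log2 fold change of *Inhbc* was 1.13, and 0.41 without KPF replicate 1. Its call was kept in 2 of the 6 fits that leave out a library, and not in that one. *Pcsk6*, a proprotein convertase that cleaves TGF-beta-family precursors, had a log2 fold change of -1.07, without overlap. Without WPF replicate 4 it was -0.77 and not called, and the list had 0 calls then and with the replicate block.

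Of 14 tested integrated stress response genes, 1 was called, and it was higher. *Ddit3*, the gene of CHOP, stood at 162, 45.7 and 31.6 CPM across KPF dams and at 25.3, 23.5 and 14.4 CPM in WPF, with a log2 fold change of 1.92 and no overlap. Without KPF replicate 1 it was 0.88 and still called. The last 68 bases of *Ddit3* overlap *Mars* on the opposite strand, and reads of that stretch cannot be told apart where strand was not counted. The other 13 tested genes of the list were not called. Those with the next smallest p, *Trib3*, *Atf3* and *Vldlr*, had log2 fold changes of -0.86, -0.65 and -0.67. Over the list 6 values were positive and 8 negative, with a median of -0.04. Under the alternatives 1 to 3 genes of the list were called. *Trib3*, a pseudokinase downstream of ATF4, was highest in WPF replicate 4 at 11.6 CPM and lowest in KPF replicate 3 at 0.67 CPM.

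Of 20 tested ChREBP-responsive genes 14 were called, all lower in KPF, with a median log2 fold change of -2.33. This list was known to be lower from earlier results of these data and is given only as the setting for *Fgf21*. Of 17 tested PPARalpha-responsive genes 0 were called by edgeR on all 6 libraries. Their median was 0.37, against 0.02 over all tested genes. Under the alternatives 0 to 6 of them were called, with 6 in edgeR without WPF replicate 4 and 5 with the replicate block. *Plin2*, a lipid droplet coat protein, had -0.91 and *G0s2*, an inhibitor of the lipase ATGL, had 0.87, both with overlapping groups.

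**Figure D4:**
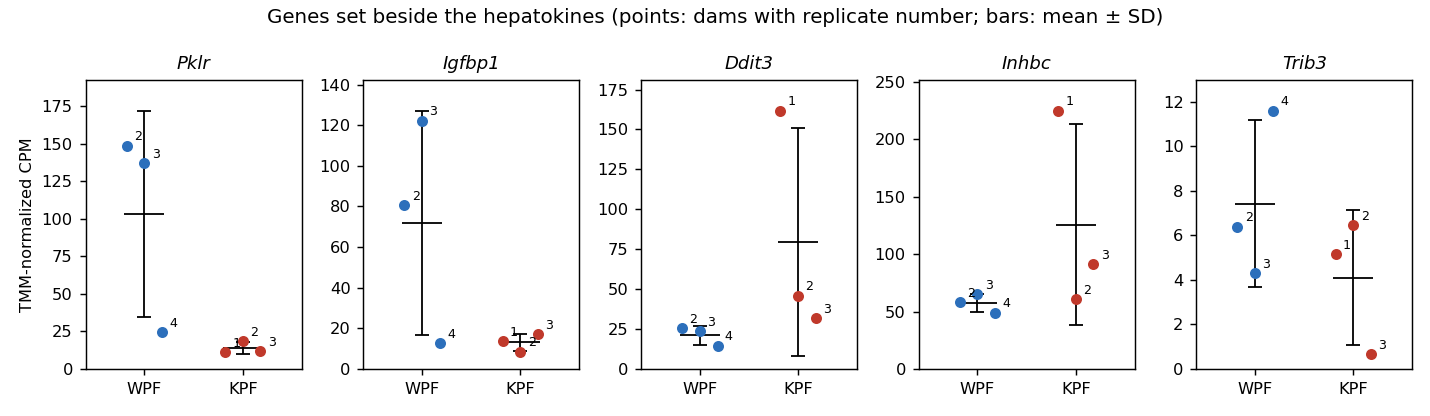
TMM-normalized CPM in each library (points with replicate number, mean ± SD of 3 dams) of *Pklr*, in which WPF replicate 4 (24.5 CPM) lies just above the KPF dams, of *Igfbp1*, in which it lies among them, of *Ddit3* and *Inhbc*, in which KPF replicate 1 is far above the rest, and of *Trib3*, in which the groups overlap.

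Among 22 other tested liver-secreted factors, 1 was called higher and 2 lower. *Igfbp2*, an insulin-like growth factor binding protein, averaged 125 ± 24.3 CPM across KPF dams and 340 ± 101 CPM across WPF dams (SD, n = 3 each), a log2 fold change of -1.44 without overlap and called in all 6 fits that leave out a library. *Igfbp1*, a binding protein that insulin is known to suppress, stood at 80.7, 122 and 12.6 CPM across WPF dams and at 13.5, 8.40 and 17.1 CPM in KPF, a log2 fold change of -2.46. WPF replicate 4 was again among the KPF dams. *Lcn2*, an acute phase protein that binds siderophores, was higher at 1.41, and its call was kept in 3 of these 6 fits.

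Of 15 tested plasma carriers and cystatins, 2 were called, both lower: *Serpina7*, thyroxine-binding globulin, at -1.87 and *Apoh* at -1.14. *Ttr*, transthyretin, the partner of RBP4 in plasma, stood at 1229 ± 616 CPM in KPF against 2431 ± 889 CPM in WPF (SD, n = 3 each), a log2 fold change of -0.98 with overlapping groups and edgeR's adjusted p at 0.464. Of 12 tested genes of retinoid handling 0 were called by edgeR, with 0 to 5 under the alternatives. Of 18 tested genes of selenium and selenoprotein supply, 1 was called higher and 4 lower. The lower ones were *Selenof* at -0.87, *Sephs2*, which makes the selenium donor for selenocysteine, at -0.77, *Txnrd1* at -0.65 and *Gpx4* at -0.61, and the higher one was *Selenom* at 1.03. The list had 1 to 6 calls when a library was left out and 0 with the replicate block. The calls of *Sephs2* and *Txnrd1* were kept in 3, that of *Gpx4* in 2 and those of *Selenom* and *Selenof* in 1 of the 6 fits that leave out a library.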

How the data were processed

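Poly(A) RNA of 6 livers was sequenced. Per the labels, the submitters' processing notes name cutadapt 1.9.1, HISAT2 2.2.1, HTSeq 0.6.1 and the build GRCm39. The authors deposited whole-number read counts per gene and FPKM values, which equal the count divided by exonic length and by the total of counted reads, to 2 decimals. The kit is not described as strand-specific. Symbols came from GENCODE M21 (52073 of 56691 gene IDs matched). Counts were normalized by TMM and compared with edgeR 4.0.16 (R 4.3.3, quasi-likelihood test, Benjamini-Hochberg) over genes whose mean FPKM reached 1. Alternatives used DESeq2 1.42.0 and limma 3.58.1, and the tests were tried on simulated counts. Library totals of 10694496 to 14496630 reads limit the precision of genes with few reads, such as *Fgf21*. Dams with the same number in KPF and WPF are not tied to each other by the labels, so the numbers were not taken to pair them. Correlations of their departures from the group mean were 0.035 for replicate 2 and 0.00034 for replicate 3. These cannot exclude a pairing or a shared batch, since each group mean also holds dams without a partner. Within each group no pair of libraries agreed within sampling noise (chi-square per gene 35.5 to 104). The members, lists and tests were chosen with earlier results of these data known. Named genes are the members, *Mlxipl* and up to 4 genes per list with the smallest p, while *Klb*, *Selenof* and the neighbours of *Inhbe* were added after their values were seen. In the list of carriers, transferrin is *Trf* in the annotation.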

Additional observations from a re-analysis of the deposited data

How the results depend on the processing

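Log2 fold changes of *Inhbe* (1.13 to 1.9), *Fgf21*, *Inhba*, *Ahsg*, *Gdf15* and *Enho* kept their sign under every alternative run, and *Inhbe* kept its call by the looser rule in all 15, with adjusted p from 0.0188 to 0.823. For what follows, the cause was not tested. At an adjusted p under 0.05, DESeq2 gave 156 genes and 1 member (*Inhbe*), no filter gave 286 genes and 1 member (*Inhbe*), and leaving out a library gave 0 to 5 genes (5 without WPF replicate 4) and 0 members. By the looser rule, no filter gave 2486 genes, 3 members and 46 list genes against 1067, 1 and 29, a mean FPKM of at least 5 gave 460 genes, limma on log2(FPKM + 0.1) gave 2 members, and leaving out a library gave 570 to 1619 genes, 1 to 2 members and 20 to 37 list genes. The genes were fewest without WPF replicate 3 and most without KPF replicate 3, and the list genes fewest without WPF replicate 2 and most without WPF replicate 4. Calls toward higher levels in KPF made up 59.4% by TMM, 33.7% after scaling to library totals, and 30.5% or 29.1% in limma with a pseudocount of 1 or 0.1. *Lect2* changed sign at 0.20 without KPF replicate 1, at 0.08 without WPF replicate 4 and at 0.33 with the replicate block, *Rbp4* at 0.011 with the block, *Fetub* at 0.046 without WPF replicate 2 and *Selenop* at 0.099 without KPF replicate 2. The lowest values on leaving out a library were -0.33, -0.43 and -0.48 for *Lect2*, *Fetub* and *Selenop*. *Gdf15* and *Inhba* have no value at a mean FPKM of at least 5, which they do not reach. The replicate block rests on replicates 2 and 3 of each group, since 1 occurs only in KPF and 4 only in WPF. It so sets aside KPF replicate 1 and WPF replicate 4, the dams through 1 or both of which *Fgf21*, *Gdf15* and *Inhba* overlapped between the groups. With the block, whose numbers are not known to pair dams, 4 members were called (*Fgf21* at -6.09, *Gdf15* at 0.93, *Inhbe* at 1.39 and *Inhba* at -1.65) and 1231 genes. Few reads limit *Fgf21* in KPF.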

Other observations

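Around *Inhbe*, the only called member, a window was set after the values of *Inhbe*, *Inhbc* and *Ddit3* had been seen. Each of these genes was highest in KPF replicate 1. Within 100 kb on either side of *Inhbe* on chromosome 10, 9 other genes were tested. Of these, *Ddit3* and *Inhbc* were called higher and *Gm4189* lower in KPF by the looser rule, which 9.82% of all tested genes passed. The gap from *Inhbe* was 1.91 kb to *Inhbc* and 52.6 kb to *Ddit3*. The genes between and around them were not all higher, and of the 9 genes 5 had positive and 4 negative log2 fold changes. *Mars*, encoding methionyl-tRNA synthetase, had a log2 fold change of -0.54, *Mbd6* of -0.03 and *Dctn2* of -0.13. *R3hdm2* had 0.40, *Gm20492* 0.49 and *Kif5a* 0.09. *Gm4189*, with -1.24, overlaps the start of *Ddit3* on the opposite strand and stood at means of 0.871 CPM in KPF and 2.08 CPM in WPF.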
